A study of Mus musculus with 8 samples.

Results

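Small RNA was sequenced from mouse left spinal cord, and the deposited table lists 1396 mature miRNAs. The text below is about 6 of them, mmu-miR-764-5p, mmu-miR-764-3p, mmu-miR-1912-3p, mmu-miR-1264-3p, mmu-miR-1298-5p and mmu-miR-448-3p, whose 5 hairpins lie in introns of Htr2c, the gene of the serotonin receptor 5-HT2C. They were picked by name and host gene, but after the difference of miR-764-5p between the groups was known, so that difference and those of its neighbours are given as a description. In bone cancer pain (4 libraries), C57BL/6 mice carried LL/2 cells, an established mouse lung carcinoma line, implanted into the marrow of the left femur. In sham (4 libraries), C57BL/6 mice received an equal volume of saline at that site. The labels used here give no age, sex or time after surgery. They do not say whether each library is a separate animal, so any spread between libraries may be technical.

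5-HT2C is a G protein-coupled receptor of neurons that raises inositol phosphate signalling, and it is also very abundant in the choroid plexus. In the spinal cord, serotonin arrives from brainstem neurons and acts on sensory and motor circuits through several receptors, this one among them. A miRNA within an intron can be cut from its host's transcript; a hairpin gives a 5p and a 3p strand, and the strand that is kept pairs with target mRNAs mainly through its seed, bases 2 to 8.

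The mature sequences are shown because the 6 miRNAs share a host gene but no seed; each is written 5′ to 3′ with its seed in capitals (RefSeq, GRCm38.p6, plus strand of chromosome X).
miR-764-5p: gGUGCUCAcauguccuccu
miR-764-3p: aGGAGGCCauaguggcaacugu
miR-1912-3p: cACAGAACaugcagugagaacu
miR-1264-3p: cAAAUCUUauuugagcaccugu
miR-1298-5p: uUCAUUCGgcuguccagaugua
miR-448-3p: uUGCAUAUguaggaugucccau
All 6 matched by name, and their 6 seeds are all different. Among listed miRNAs that share bases 2 to 7 or 2 to 8 with a member, the most abundant was miR-153-3p, a neuronal miRNA. It shares bases 2 to 7, but not the whole seed, with miR-448-3p.
miR-153-3p: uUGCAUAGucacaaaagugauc
Its level was 23.5 ± 4.43 CPM in bone cancer pain and 21.5 ± 4.80 CPM in sham (SD, n = 4 each), where CPM is the authors' read count scaled to the total reads of the library. Bases 2 to 8 of miR-764-3p were shared by miR-7062-5p, which averaged 0.0275 CPM over the 8 libraries, and bases 2 to 7 of miR-1298-5p by miR-12187-3p, which averaged 0.616 CPM. Of the 1396 listed names, 1180 had a mature sequence for this search.

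Htr2c spans 235 kb of chromosome X (146962513 to 147197277, GRCm38, plus strand). By its 7-exon transcript Htr2c-202, intron 3, 85.3 kb long, holds 4 of the hairpins: Mir764 (147002259 to 147002366), Mir1912 (147009441 to 147009527), Mir1264 (147010601 to 147010686) and Mir1298 (147064905 to 147065002). Mir448 (147158210 to 147158321) is in intron 5, which is 93.5 kb long. All 5 are on the strand of Htr2c and overlap 0 exons of any annotated Htr2c transcript. Mir1912 and Mir1264 lie 1.07 kb apart, Mir764 lies 7.07 kb upstream of Mir1912, and Mir1298 and Mir448 are separated from the hairpin before them by 54.2 and 93.2 kb.

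**Figure D1:**
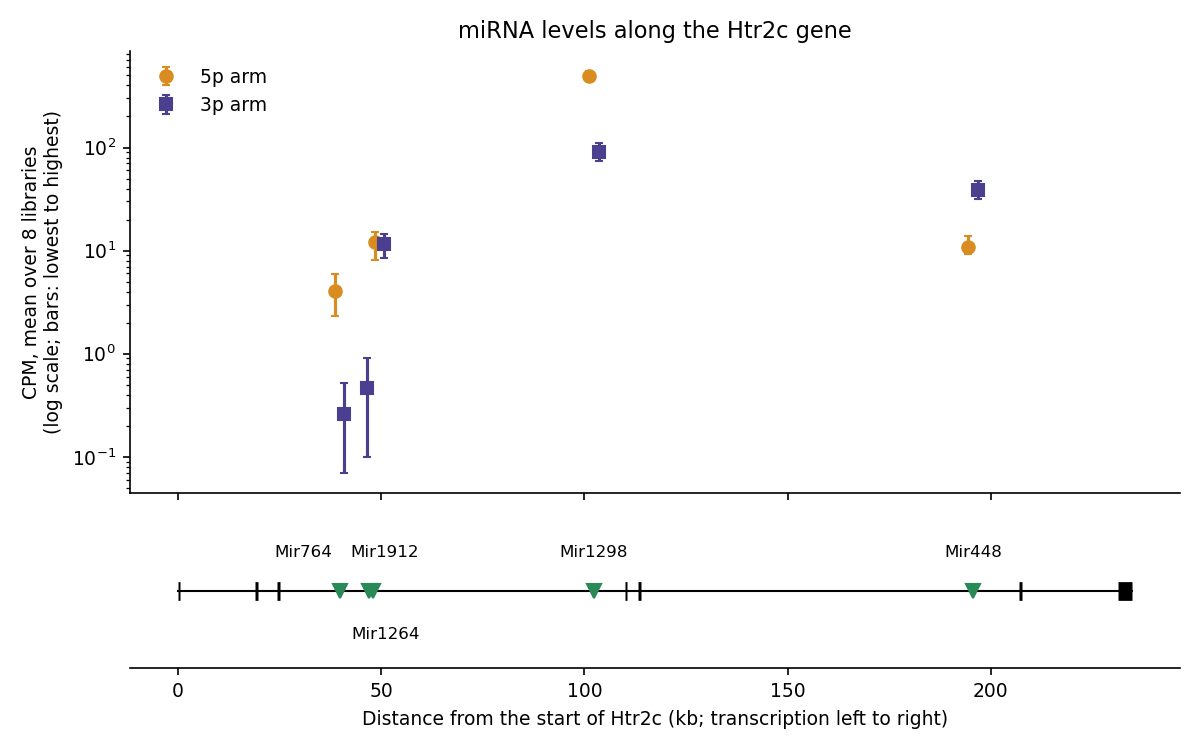
Levels of both arms of the 5 hairpins (upper panel, CPM on a log axis, mean over the 8 libraries with bars from the lowest to the highest library) above a map of Htr2c (lower panel, kb from its start; black boxes are exons, triangles hairpins). Symbols of neighbouring arms are set apart sideways, and miR-1912-5p is left out because it is listed at 0 in 7 of 8 libraries; miR-1298-5p averaged 498 CPM and miR-764-3p 0.260 CPM.

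Reads assigned to listed miRNAs ranged from 5220739 to 9260169 per library, and 1 read was worth 0.0741 to 0.130 CPM. Spinal cord and neuron miRNAs were present in every library, at unlike levels. miR-10b-5p, of a Hox cluster, was at 89970 to 122639 CPM in bone cancer pain and 100582 to 121637 CPM in sham. Among neuron miRNAs, miR-9-5p was at 83597 to 103034 CPM in bone cancer pain and 90484 to 98739 CPM in sham. miR-128-3p was at 11864 to 18262.5 CPM in bone cancer pain and 12645 to 18159 CPM in sham. miR-124-3p was lower, at 774 to 1271 CPM in bone cancer pain and 748 to 1260 CPM in sham. The summed level of miR-206-3p, miR-133a-3p and miR-1a-3p, miRNAs of skeletal muscle, was 6047 to 16908 CPM in bone cancer pain and 5362 to 28922 CPM in sham, and was highest in sham 1 (28922 CPM) and sham 2 (23955 CPM). The log2 fold changes of the tested members are given with and without those libraries.

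The members differed in level far more than they differed between libraries. miR-1298-5p, the most abundant, made up 87.5% to 91.2% of the summed CPM of the 6 members in a library, and ranked 94th of the 1396 listed miRNAs by mean. It averaged 498 CPM over the 8 libraries, and was followed by miR-448-3p at 38.5 CPM, miR-1264-3p at 11.6 CPM, miR-764-5p at 4.05 CPM, miR-1912-3p at 0.466 CPM and miR-764-3p at 0.260 CPM. Mature miRNAs have nearly one length, so these levels were not divided by length; how evenly different miRNA sequences enter such libraries was not measured.

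Each of the first 4 steps in that order was seen in all 8 libraries. In log2(CPM + 1) within a library, miR-1298-5p stood above miR-448-3p by 3.66 ± 0.234 (SD, n = 8), miR-448-3p above miR-1264-3p by 1.66 ± 0.257, miR-1264-3p above miR-764-5p by 1.33 ± 0.260 and miR-764-5p above miR-1912-3p by 1.77 ± 0.328. The last step, miR-1912-3p above miR-764-3p by 0.21 ± 0.270, was seen in 6 of 8 libraries and was smaller than its SD. Steps that reach scarce members depend on the pseudocount: with 0.1 CPM added in place of 1, the last 2 steps were 2.99 and 0.63. The order was set by means over these same libraries, so the steps are a description, with no test. Neighbouring hairpins were not alike in level: the 3p arms of Mir1912 and Mir1264, the closest pair, averaged 0.466 and 11.6 CPM.

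mmu-miR-764-5p, from the hairpin nearest the Htr2c start, stood at 2.33, 3.38, 3.61 and 3.63 CPM in bone cancer pain libraries 1 to 4, against 3.75, 4.74, 4.99 and 5.98 CPM in sham libraries 1 to 4. All 4 bone cancer pain libraries were below all 4 sham libraries, though the highest bone cancer pain library and the lowest sham library differed by 0.12 CPM, about the worth of 1 read. They rest on 19, 41, 36 and 41 reads in bone cancer pain, against 36, 64, 63 and 46 reads in sham. Exact Poisson 95% intervals, which cover counting error only, ran from 2.61 to 4.93 CPM in bone cancer pain 4 and from 2.62 to 5.19 CPM in sham 1. Within a group the libraries differed about as much as counting alone gives, with a dispersion index (chi-square over its degrees of freedom) of 0.999 in bone cancer pain and 1.52 in sham.

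The mean of miR-764-5p was 3.24 ± 0.616 CPM in bone cancer pain and 4.87 ± 0.916 CPM in sham (SD, n = 4 each). Its log2 fold change, bone cancer pain over sham on the log2(CPM + 1) scale, was -0.47 with a standard error of 0.178, which understates the change of a miRNA this scarce. Leaving out 1 library moved it between -0.57 (without sham 1) and -0.36 (without bone cancer pain 1), and without sham 1 and sham 2 together it was -0.62. Of the 605 miRNAs whose mean over the 8 libraries reached 1 CPM, 10 (1.65%) had all bone cancer pain libraries below all sham libraries and 12 (1.98%) had them all above. miR-764-5p is 1 of those 10 and was picked with that known, so nothing follows from the count. The same order held after rescaling to the listed miRNAs (5.39 against 5.48 CPM for the nearest bone cancer pain and sham libraries) and under median-of-ratios scaling (3.59 against 3.92).

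miRNAs of the choroid plexus, where Htr2c is abundant, and of other epithelia were looked at beside this value. All 5 of that list were above 0 in every library, with sums, nearly all miR-204-5p, of 1213 to 1532 CPM in bone cancer pain and 1297 to 1730 CPM in sham. Of these, miR-211-5p, from a Trpm1 intron, was at 13.5 to 18.4 CPM in bone cancer pain and 20.2 to 22.2 CPM in sham, also without overlap. It is 1 of the 10 of 605 tested miRNAs (1.65%) that were lower without overlap, and is given as a description. miR-204-5p, from a Trpm3 intron, was at 1189 to 1509 CPM in bone cancer pain and 1269 to 1704 CPM in sham. The 3 others, of the epithelial miR-200 family, reached higher in bone cancer pain, with overlap. miR-200a-3p was at 1.81 to 4.87 CPM in bone cancer pain and 0.890 to 2.71 CPM in sham, miR-200b-3p at 2.58 to 4.78 CPM in bone cancer pain and 1.90 to 3.43 CPM in sham, and miR-429-3p at 0.250 to 1.06 CPM in bone cancer pain and 0.260 to 0.730 CPM in sham. Whether these spinal cord samples held such cells was not tested, nor was their part in the miR-764-5p values. In a bulk sample, fewer cells of a type and less RNA per cell cannot be told apart.

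mmu-miR-764-3p, the other strand of the same hairpin, rested on 1 to 4 reads per library and was not tested. It stood at 0.120, 0.330, 0.300 and 0.350 CPM in bone cancer pain and at 0.310, 0.0700, 0.0800 and 0.520 CPM in sham. The groups overlap, and the lowest and the highest value are both in sham. The hairpin is shown to place the strands, with both mature arms in capitals, the 5p arm first.
Mir764: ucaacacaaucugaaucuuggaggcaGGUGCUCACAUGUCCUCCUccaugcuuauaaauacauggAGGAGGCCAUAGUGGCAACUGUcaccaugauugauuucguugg

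mmu-miR-1912-3p was as scarce, with 1 to 11 reads per library. It stood at 0.250, 0.910, 0.50 and 0.270 CPM in bone cancer pain and at 0.10, 0.440, 0.480 and 0.780 CPM in sham, with overlapping groups, and was not tested. miR-1912-5p, its other strand, was listed at 0 in 7 libraries and had 1 read in sham 2; a count of 0 allows up to 3 reads, or 0.238 to 0.390 CPM in those 7 libraries.

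mmu-miR-1264-3p, encoded next to Mir1912, stood at 8.47, 12.8, 13.2 and 11.1 CPM in bone cancer pain and at 10.1, 9.70, 12.6 and 14.6 CPM in sham. The lowest library was bone cancer pain 1, the highest sham 4, and the groups overlapped. Its log2 fold change was -0.04 with a standard error of 0.188, and its sign turned without bone cancer pain 1 (0.08) or sham 4 (0.06). Leaving out any other library but bone cancer pain 4 also moved it by over 1.5 times, to between -0.12 and -0.004. Without sham 1 and sham 2 it was -0.25.

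mmu-miR-1298-5p stood at 444, 525, 457 and 447.6 CPM in bone cancer pain and at 517, 487, 554 and 552 CPM in sham. The groups overlap through 1 library, bone cancer pain 2, which was above sham 1 and sham 2, while the other 3 bone cancer pain libraries were below every sham library. The mean was 469 ± 38.3 CPM in bone cancer pain and 528 ± 32.2 CPM in sham (SD, n = 4 each), a log2 fold change of -0.17 with a standard error of 0.111. Without sham 1 and sham 2 together the log2 fold change was -0.24. With 3619 to 6992 reads per library, libraries of a group differed by far more than counting error, with a dispersion index of 35.2 in bone cancer pain and 23.5 in sham.

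mmu-miR-448-3p, the hairpin farthest from the others, stood at 39.9, 36.7, 47.8 and 37.0 CPM in bone cancer pain and at 39.2, 31.9, 38.6 and 36.7 CPM in sham. Bone cancer pain 3 was the highest library and sham 2 the lowest, and the groups overlapped. Of the 4 members tested it was the only one with a higher mean in bone cancer pain, with a log2 fold change of 0.13 and a standard error of 0.143. That value was 0.05 without bone cancer pain 3 and 0.07 without sham 2.

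**Figure D2:**
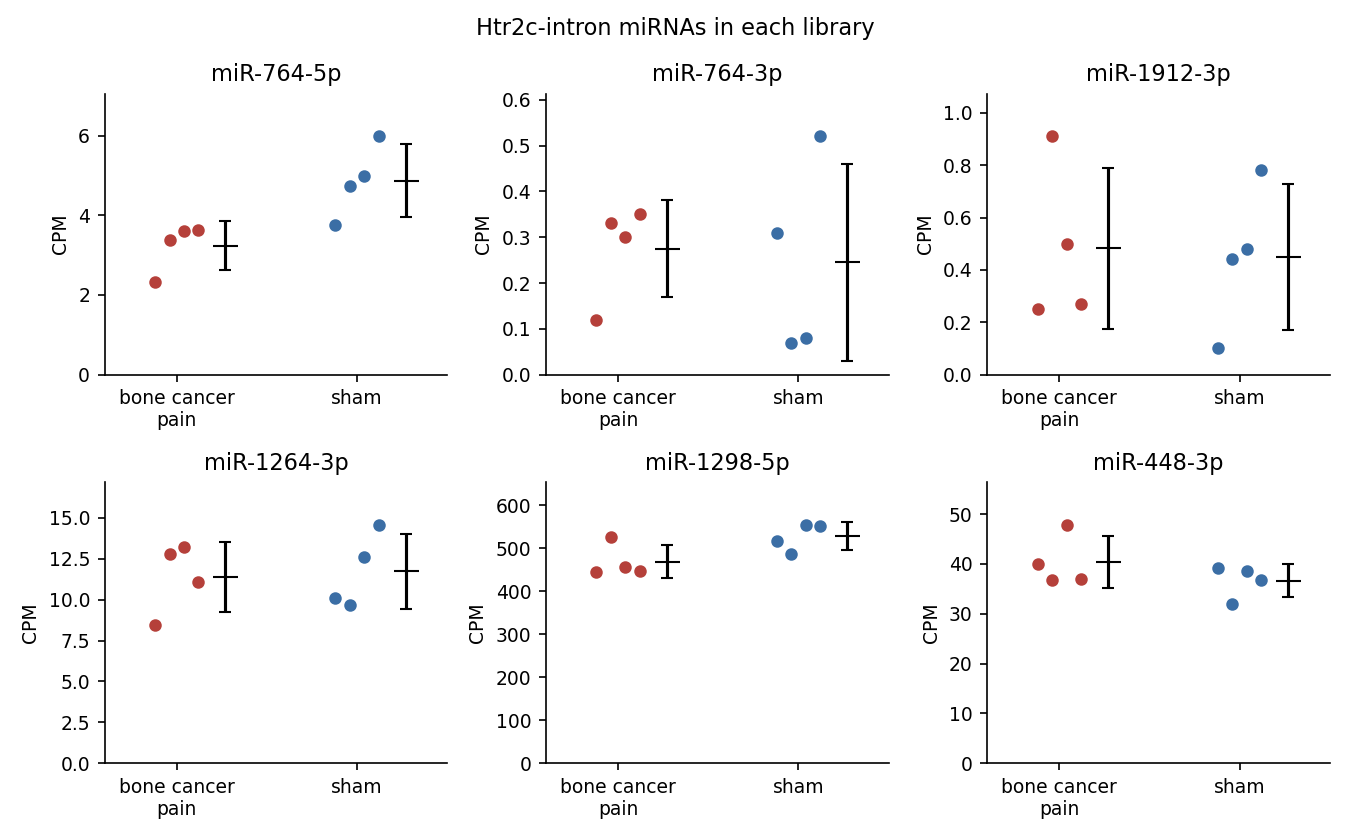
CPM of the 6 members in each library (points, bone cancer pain libraries 1 to 4 and sham libraries 1 to 4 from left to right in each group; bars are mean ± SD, n = 4), each panel with its own axis from 0. The bone cancer pain points of miR-764-5p reach 3.63 CPM and its sham points begin at 3.75 CPM; in the other 5 panels the groups overlap.

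Of the 4 members that reached this mean, 0 passed an adjusted p of 0.05 with limma, as did 0 of all 605 miRNAs tested (0.00%). At an unadjusted p under 0.05, limma gave 28 of the 605 (4.63%), and edgeR and DESeq2 on the recovered reads gave 43 and 31, with 0 after adjustment. Among the 4 members, 1 was higher and 3 were lower, and their median log2 fold change was -0.11, beside 292 higher and 313 lower and a median of -0.01 over all 605. The 3 tested other arms of these hairpins, miR-1298-3p, miR-448-5p and miR-1264-5p, differed on the log2 scale by -0.09, 0.11 and -0.09, and 0 of 3 passed. The value of miR-1298-3p was -0.002 without sham 1, -0.01 without bone cancer pain 4 and -0.17 without sham 2. That of miR-448-5p was 0.24 without sham 4 and 0.03 without bone cancer pain 2, and that of miR-1264-5p turned to 0.06 without bone cancer pain 4.

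The strand that was sequenced most differed among the hairpins, and in 4 of the 5 it was the same strand in all 8 libraries; the exception was Mir1264. Over all 8 libraries the 5p arm gave 94.3% of 367 Mir764 reads (exact binomial 95% interval 91.4% to 96.4%), 84.8% of 49957 Mir1298 reads (84.5% to 85.2%), 50.9% of 1996 Mir1264 reads (48.7% to 53.1%), 22.0% of 4156 Mir448 reads (20.7% to 23.3%) and 2.44% of 41 Mir1912 reads (0.0617% to 12.9%). By library, the 5p share of Mir764 was 91.1% to 95% in bone cancer pain and 92.0% to 98.5% in sham, and that of Mir1298 83.1% to 85.9% in bone cancer pain and 82.4% to 86.5% in sham. Intervals of this kind cover counting error alone, and PCR copies of a molecule are counted as separate reads. Those over all 8 libraries pool the reads and leave out the spread between libraries. For Mir1298 the interval was 81.4% to 83.3% in sham 1 and 85.5% to 87.5% in sham 4, without overlap.

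Mir1264 had no one leading strand. Its 5p share was 49.4% to 54.2% in 7 libraries, each with an interval that holds 50%, and 42.1% (35.5% to 49.0%) in bone cancer pain 4. The 5p share of Mir448 was 26.9% in bone cancer pain 2 and 27.3% in sham 4, against 18.6% to 23.4% in the other 6 libraries. In 2 hairpins that favour opposite strands, shown with the mature arms in capitals and the 5p arm first, the more abundant arm is the first for Mir1298 and the second for Mir448.
Mir1298: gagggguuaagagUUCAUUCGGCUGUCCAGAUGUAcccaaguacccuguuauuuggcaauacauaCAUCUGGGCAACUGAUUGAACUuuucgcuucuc
Mir448: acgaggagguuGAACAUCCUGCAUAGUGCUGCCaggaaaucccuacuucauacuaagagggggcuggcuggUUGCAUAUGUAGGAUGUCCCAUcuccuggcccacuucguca

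**Figure D3:**
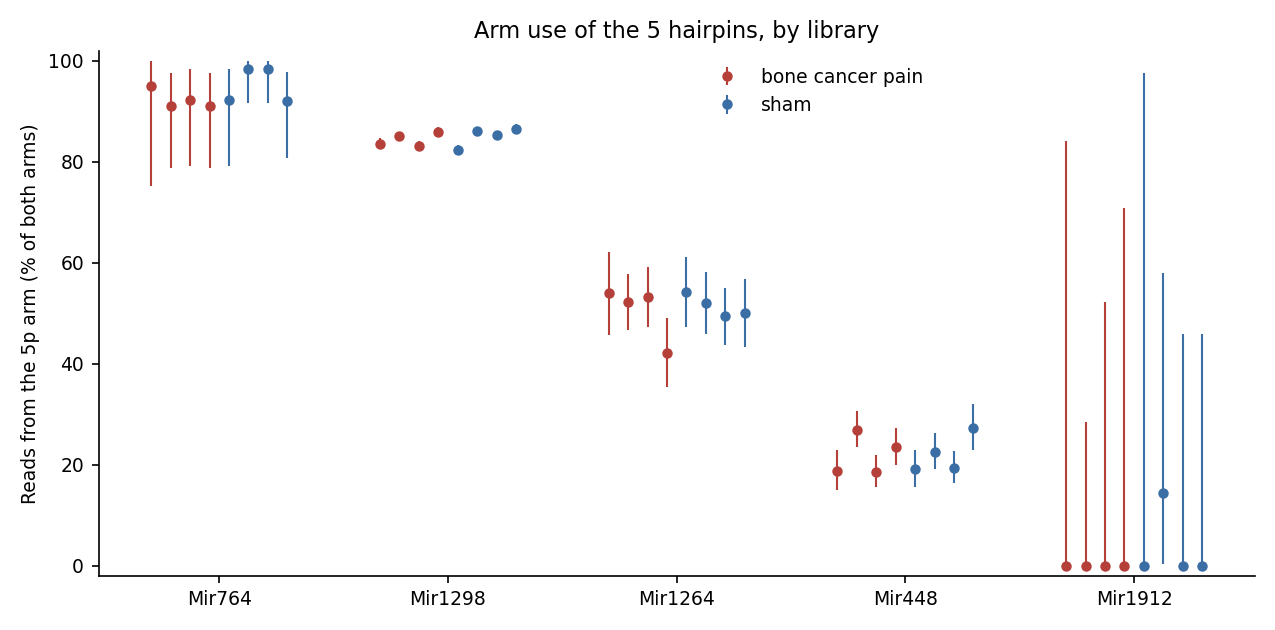
Share of reads from the 5p arm (percent of the reads of both arms) for the 5 hairpins; each point is a library with its exact binomial 95% interval, in bone cancer pain to the left of sham. Mir764 and Mir1298 stay above 82%, Mir1264 lies near 50%, Mir448 stays under 28%, and the intervals of Mir1912 are wide because it had 1 to 11 reads per library.

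The 4 members at or above 1 CPM on average form 6 pairs, whose covariation over the 8 libraries was measured on log2(CPM + 1). The highest Pearson r was that of miR-764-5p and miR-1298-5p, 0.71 (exact permutation p = 0.0469, adjusted p = 0.281 over the 6 pairs), with a Spearman rho of 0.69 (exact permutation p = 0.0694, adjusted p = 0.393). After centring each group on its mean, r was 0.38 (exact permutation p = 0.375 within groups), and without bone cancer pain 1 and sham 4, the libraries farthest from the median of miR-764-5p, the pooled r was 0.41. With 4 libraries per group and 19 to 64 reads of miR-764-5p per library, a relation within groups is neither shown nor excluded.

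miR-764-5p and miR-1264-3p, 8.23 kb apart in intron 3, had r = 0.62 (exact permutation p = 0.104, adjusted p = 0.295) and rho = 0.33 (exact permutation p = 0.428, adjusted p = 0.513). Centred within groups, r was 0.85 (exact permutation p = 0.0208, adjusted p = 0.125) and rho 0.83 (exact permutation p = 0.0382, adjusted p = 0.229). Without bone cancer pain 1 and sham 4 the pooled r was -0.26, so the size of the pooled value depends on those 2 libraries. The r within groups was not computed without them. Those libraries had the lowest and the highest levels of both miRNAs. Leaving out both ends of a range can lower r even where a relation holds, so the -0.26 does not decide whether there is one. They are also the 2 libraries with the fewest reads in all.

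**Figure D4:**
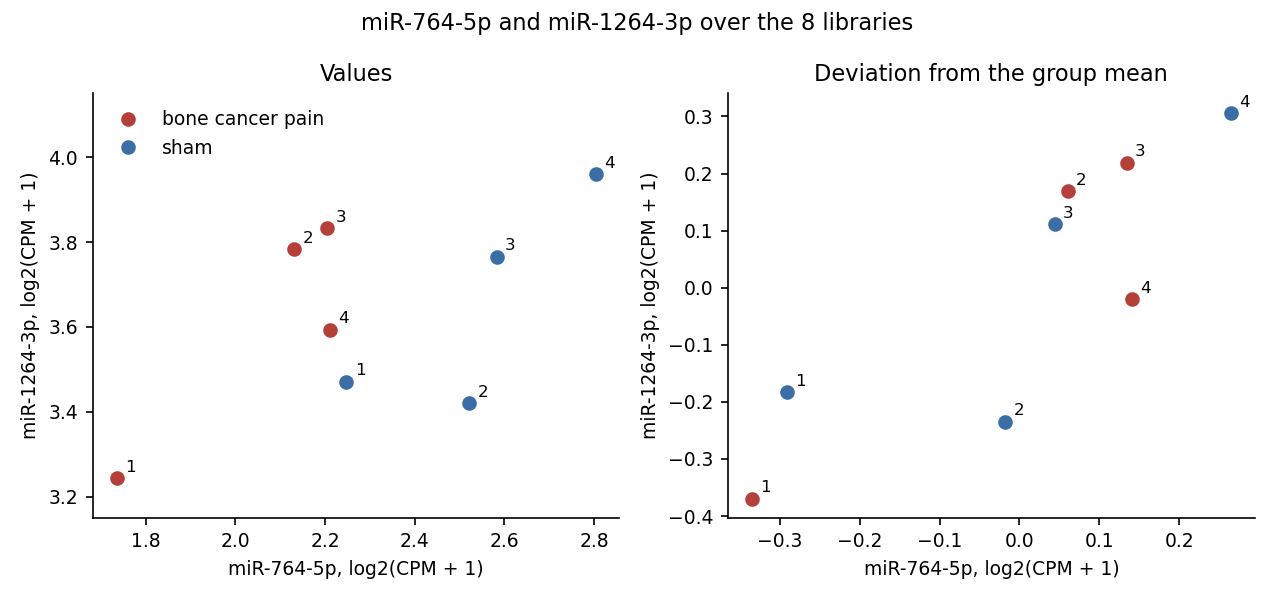
miR-764-5p against miR-1264-3p in the 8 libraries, both in log2(CPM + 1); numbers are the library numbers within each group. Left, values, with a pooled r of 0.62; right, deviations from the group mean, with r = 0.85 and bone cancer pain 1 and sham 4 at the opposite ends.

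miR-1264-3p and miR-1298-5p had r = 0.56 and rho = 0.55 (exact permutation p = 0.148 and p = 0.171, adjusted p = 0.295 and 0.393), and r = 0.69 within groups (exact permutation p = 0.106, adjusted p = 0.318). Without sham 4 and bone cancer pain 1 the pooled r was 0.12. miR-448-3p, from the other intron, had r = -0.37 with miR-764-5p, 0.24 with miR-1264-3p and -0.29 with miR-1298-5p, with rho of -0.52, -0.10 and -0.40 (exact permutation p of r = 0.371, 0.603 and 0.518, of rho = 0.197, 0.840 and 0.327; adjusted p of r = 0.557, 0.603 and 0.603, of rho = 0.393, 0.840 and 0.490). Within groups these r were -0.04, 0.31 and 0.04, and without the 2 farthest libraries -0.41, 0.66 and -0.40. None of the 6 pairs passed after adjustment, pooled or within groups. miR-448-5p, the other arm of Mir448, is outside these pairs. Its pooled r was 0.73 with miR-1264-3p, 0.26 with miR-764-5p and 0.28 with miR-1298-5p, given as a description with no test.

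Both arms of a hairpin are cut from 1 precursor, and in 3 hairpins both were abundant enough to compare. These correlations were not among those planned and were added later, so their p-values are a description. For miR-1264, r between arms was 0.70 and rho 0.83 (exact permutation p = 0.0545 and p = 0.0154, adjusted p = 0.164 and 0.0461 over 3 hairpins), with r of 0.69 within groups and 0.94 without bone cancer pain 3 and bone cancer pain 4. For miR-1298, r was 0.45 and rho 0.40 (exact permutation p = 0.270 and p = 0.327, adjusted p = 0.405 and 0.333), with r of 0.38 within groups and 0.16 without bone cancer pain 4 and bone cancer pain 1. For miR-448, r was -0.02 and rho -0.40 (exact permutation p = 0.960 and p = 0.333, adjusted p = 0.960 and 0.333), with r of -0.16 within groups and 0.40 without bone cancer pain 2 and sham 4.

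For each of the 4 tested members, the 3 most alike of the 604 other tested miRNAs over the 8 libraries were not of this locus; these Pearson r share the libraries and their depth and are a description. For miR-764-5p they were miR-341-3p (0.84), miR-124b-3p (0.83) and miR-541-5p (0.82), and miR-1298-5p ranked 35th of 604. For miR-1298-5p they were miR-329-5p (0.95), miR-7224-3p (0.81) and miR-339-3p (0.81), and miR-764-5p ranked 14th. For miR-1264-3p they were miR-1843a-3p (0.93), miR-669h-5p (0.92) and miR-340-3p (0.90), with miR-448-5p 38th and its own other arm 53rd. For miR-448-3p they were miR-873a-5p (0.91), miR-434-3p (0.91) and miR-135a-5p (0.89), with its own other arm 370th. The median r of a member with all others was 0.23 for miR-764-5p, 0.07 for miR-1298-5p, 0.34 for miR-1264-3p and 0.08 for miR-448-3p.

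Of 5 miRNAs known to target transcripts of the serotonin system, 0 passed, as did 0 of all 605 tested. Beside 292 higher and 313 lower over all 605, 4 of the 5 were higher and 1 lower. Against a median log2 fold change of -0.01 over all 605, that of the 5 was 0.11. Of these, miR-34c-5p, which can target Htr2c itself, stood at 1144 ± 93.5 CPM in bone cancer pain and 993 ± 101 CPM in sham (SD, n = 4 each), a log2 fold change of 0.21 with a standard error of 0.115. miR-16-5p, which targets the serotonin transporter, averaged 574 ± 57.9 CPM in bone cancer pain and 485 ± 77.6 CPM in sham (SD, n = 4 each), a log2 fold change of 0.25 with a standard error of 0.144. miR-135a-5p and miR-135b-5p, which target the transporter and the receptor gene Htr1a, differed on that scale by 0.09 and -0.02, and miR-96-5p, which targets Htr1b, 0.11.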

How the data were processed

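The authors deposited 1 table in CPM, reads scaled to each library's total and rounded to 2 decimals; the library totals also count reads outside the listed miRNAs. Fastp, STAR, Bowtie, Salmon and mm10 are named, with neither version nor role, in the submitters' processing notes; the small RNA library method is not given in the sources used here. Columns that could not be mapped numbered 0. Whole reads were recovered from the CPM steps: of values up to 100 CPM, 100% were whole multiples of a step within 0.0051 CPM. That of bone cancer pain 3 is so close to 0.1 CPM that rounding alone gives nearly the same.

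The 605 miRNAs that averaged 1 CPM or more (791 were left out) were fitted as log2(CPM + 1) using limma 3.58.1 under R 4.3.3 (empirical Bayes, trend, two-sided, Benjamini-Hochberg, threshold 0.05), bone cancer pain over sham. edgeR 4.0.16 and DESeq2 1.42.0 on recovered reads, and leaving out sham 1 and sham 2, were added after seeing the data. The fit was tested on simulated data. Correlations used all 40320 pairings of the 8 libraries, or the 576 within groups. A sign-change test planned for the steps in level is not printed, because the steps were ranked on the same libraries. Hairpin positions are from GENCODE M21 (GRCm38), sequences from RefSeq.

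Members, lists and tests were chosen with earlier results of these data known. Named were the members, their other arms, the 3 most alike miRNAs of each tested member, seed relatives, and fixed marker and serotonin lists; the correlations between arms were added later. Pairs of libraries of a group differed by more than counting noise, with dispersion indices of 31.8 for bone cancer pain 1 and 2 and 190 to 503 for the other pairs, and each was counted as 1 replicate. Whether any share an animal or RNA was not tested.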

Additional observations from a re-analysis of the deposited data

Results flagged for a closer look

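In 2 of 16 groups checked (7 miRNAs of the locus and the Mir764 arm share, in 2 groups of 4 libraries), 1 library lay far from the other 3; chance gives about 1 in 20. miR-1298-5p stood at 525.42 CPM in bone cancer pain 2, against 444 to 457 CPM in the other 3 bone cancer pain libraries, and without it the log2 fold change was -0.23. miR-448-5p stood at 13.79 CPM in sham 4, against 9.26 to 9.27 CPM in the other 3 sham libraries, and without it the log2 fold change was 0.24.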

How the results depend on the processing

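The 4 tested members kept the sign of their log2 fold change under every other setting run except miR-1264-3p, which turned without bone cancer pain 1 or sham 4. Leaving out 1 library at a time gave -0.57 to -0.36 for miR-764-5p, -0.12 to 0.082 for miR-1264-3p, -0.23 to -0.15 for miR-1298-5p and 0.051 to 0.18 for miR-448-3p. Settings of pseudocount, filter, scaling, count tool, replicate block and the loss of sham 1 and sham 2 together gave -0.62 to -0.46, -0.25 to -0.017, -0.24 to -0.15 and 0.091 to 0.15. With a filter of 5 CPM miR-764-5p was not tested. Of the other arms, miR-448-5p turned to -0.021 without sham 1 and sham 2 together, and miR-1264-5p ran from -0.22 to 0.059 as 1 library was left out. The count of miRNAs past the adjusted threshold was 0 under all 19 fits.

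The replicate numbers shared by the groups are not a stated pairing: deviations of same-numbered libraries correlated at -0.06, -0.06, -0.01 and -0.31. With the replicate number as a block the log2 fold change of miR-764-5p was -0.47, the count past the threshold was 0, and 21 miRNAs had an unadjusted p under 0.05.

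Leaving out 1 library, r ran from -0.050 to 0.44 for miR-1264-3p with miR-448-3p, from -0.45 to 0.00098 for miR-1298-5p with miR-448-3p (0.036 centred within groups), and from 0.30 to 0.79 for miR-764-5p with miR-1264-3p. The step from miR-1912-3p to miR-764-3p ran from 0.16 to 0.27. The cause was not tested. Depth limits miR-764-3p and miR-1912-3p, at 1 to 11 reads per library.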
